A study of Mus musculus with 15 samples.

Results

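The 31 genes described here are genes that endothelial cells, the lining of blood and lymph vessels, express at high level. They were given as a list of gene symbols, and their rows were found by matching the Ensembl identifiers of the deposited table of 56980 genes to GENCODE mouse symbols. All 31 matched 1 identifier each, and all 31 passed the filter on low values in every comparison. The lowest value of any of them in any library was 0.797 TPM (a transcript level scaled by transcript length and by the library's total), for Tal1 in a tibialis anterior muscle.

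The study profiled bulk RNA from muscle and heart of DBA/2J-mdx mice, which lack dystrophin and model Duchenne muscular dystrophy, given vehicle or the senolytic pair dasatinib and quercetin (D+Q). Dasatinib inhibits several tyrosine kinases and quercetin is a plant flavonol, and senolytic drugs are given to remove senescent cells, endothelial cells among their reported targets. All 15 libraries carry the DBA/2J-mdx genotype, and no library of a healthy strain is among them. The tibialis anterior (TA), a fast hindlimb muscle, was taken at 5 months of age after 2 months of treatment begun at 3 months of age. It gave 4 D+Q libraries, all labelled male, and 4 vehicle libraries, 2 labelled male and 2 labelled female. Hearts were taken at 16 months of age after 4 months of treatment begun at 12 months of age. They gave 3 D+Q libraries, 2 labelled female and 1 labelled male, and 4 vehicle libraries, 2 of each sex. Mice were treated 2 times per week in both schedules. The labels number the samples within a group without saying that each came from its own mouse, so p-values measure the spread between these samples.

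Endothelial cells read growth cues through receptor tyrosine kinases. VEGF ligands made by muscle and stromal cells act on Kdr, Flt1 and Flt4, and angiopoietins act on Tek, with Tie1 as its partner. Cadherin, claudin and immunoglobulin proteins seal the junctions between the cells, while ETS and SOX transcription factors, led by Erg, Sox17 and Sox18, hold their identity. In striated muscle most of these cells line capillaries that lie along the myofibres, and the heart adds an endocardial lining. In bulk RNA, fewer endothelial cells and less RNA per cell cannot be told apart.

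In 14 of 15 libraries the sex chromosome transcripts fitted the sex on the label; in the exception, D+Q heart replicate 3, labelled male, Xist stood at 47.2 TPM and none of 4 Y chromosome genes exceeded 0.0279 TPM. The heart tests and the D+Q contrast between tissues were therefore repeated without it. The other 2 D+Q hearts also express as female, so every D+Q heart does, while every D+Q muscle is male. The labelled tissues held against their markers: all 8 skeletal muscle genes were called higher in TA and all 8 ventricular genes called higher in heart. The hearts differed in atrial tissue, however. Myl7, the atrial myosin light chain, was at 94.1, 730, 541 and 283 TPM in the vehicle hearts and at 3.99, 4.54 and 3.46 TPM in the D+Q hearts. The 8 ventricular muscle genes summed to 24149 to 26728 TPM in the vehicle hearts and to 30308 to 32221 TPM in the D+Q hearts. The heart groups also differed in the number of genes with a value above 0, at 22579 to 22818 under D+Q and 24089 to 25378 under vehicle. Depth is unknown, because TPM keeps none.

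The level of the endothelial genes spanned nearly 2 orders of magnitude. Epas1, the hypoxia-inducible factor HIF-2alpha, and Cdh5, the cadherin of endothelial junctions (VE-cadherin), stood highest over all libraries with means of 69.3 and 65.8 TPM, and Tal1, a blood and endothelial transcription factor, stood lowest at 1.52 TPM. Summed over the 31 genes, the level was 588 TPM ± 89.7 (SD, n = 4) in D+Q TA, 624 TPM ± 87.7 (n = 4) in vehicle TA, 718 TPM ± 50 (n = 4) in vehicle heart and 735 TPM ± 30.8 (n = 3) in D+Q heart (749 TPM ± 28.2, n = 2, without replicate 3). The group ranges overlapped within each tissue.

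**Figure D1:**
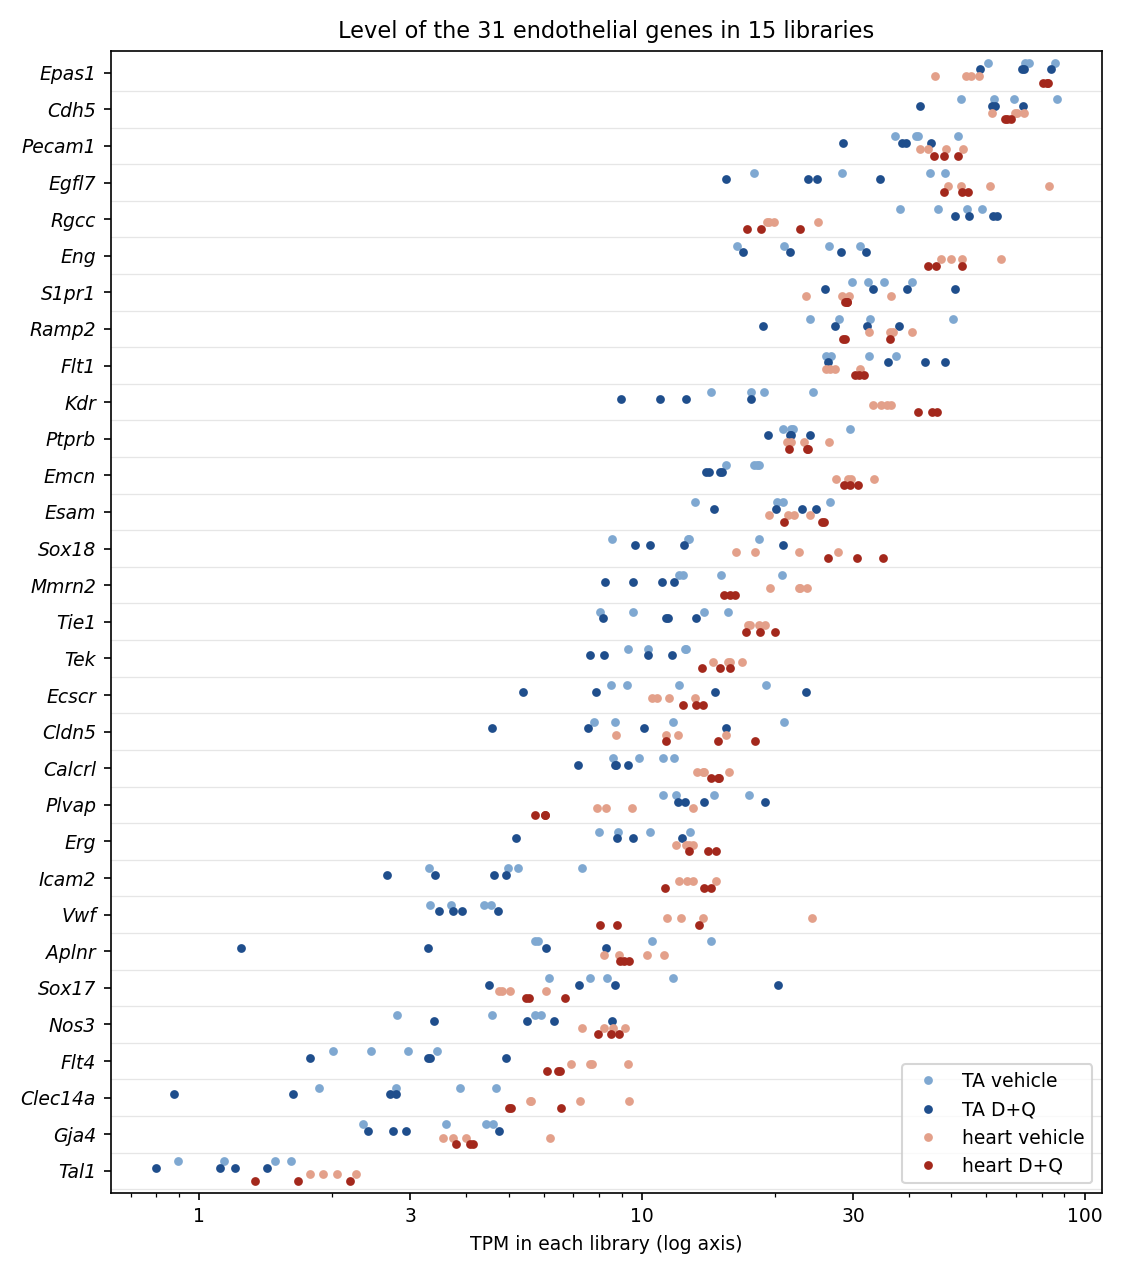
TPM of each of the 31 endothelial genes (rows, ordered by mean level) in each library on a log axis, 1 point per library, coloured by tissue and treatment. Epas1 lies at 45.8 to 85.7 TPM, Cdh5 at 42.6 to 86.4 TPM and Tal1 at 0.797 to 2.26 TPM. The TA points of most genes spread more widely than the heart points.

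The spread between libraries of a group was wider in TA. The median coefficient of variation over the 31 genes was 27.1% in D+Q TA and 25.6% in vehicle TA, against 10.2% in vehicle heart and 6.43% in D+Q heart (5.09% without replicate 3). In TA, most of the list was low together in 2 libraries. D+Q replicate 3 lay below its group mean for 29 of 31 genes (median deviation -0.32 on the log2 scale) and vehicle replicate 4 also for 29 of 31 (-0.34). Vehicle replicate 2 lay above its group mean for 28 of 31 (0.26). The 10 most abundant genes held 42.1% of TPM in D+Q replicate 3 and 43.3% in vehicle replicate 4, against 36.2% to 39.2% in the other muscles. Genes of the mitochondrial genome held 29.1% in vehicle replicate 4 and 22.7% to 25.2% in every other muscle. TPM is a share of the total, and the part of library makeup in these low values was not tested. D+Q TA replicate 1 stood apart in a different way: Sox17, an arterial transcription factor, was at 20.3 TPM there and at 4.51 to 8.68 TPM in the other D+Q muscles, and Aplnr, the apelin receptor, was at 1.24 TPM there and at 3.29 to 8.29 TPM in the others. Sox17 was thus highest and Aplnr lowest in the same muscle.

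**Figure D2:**
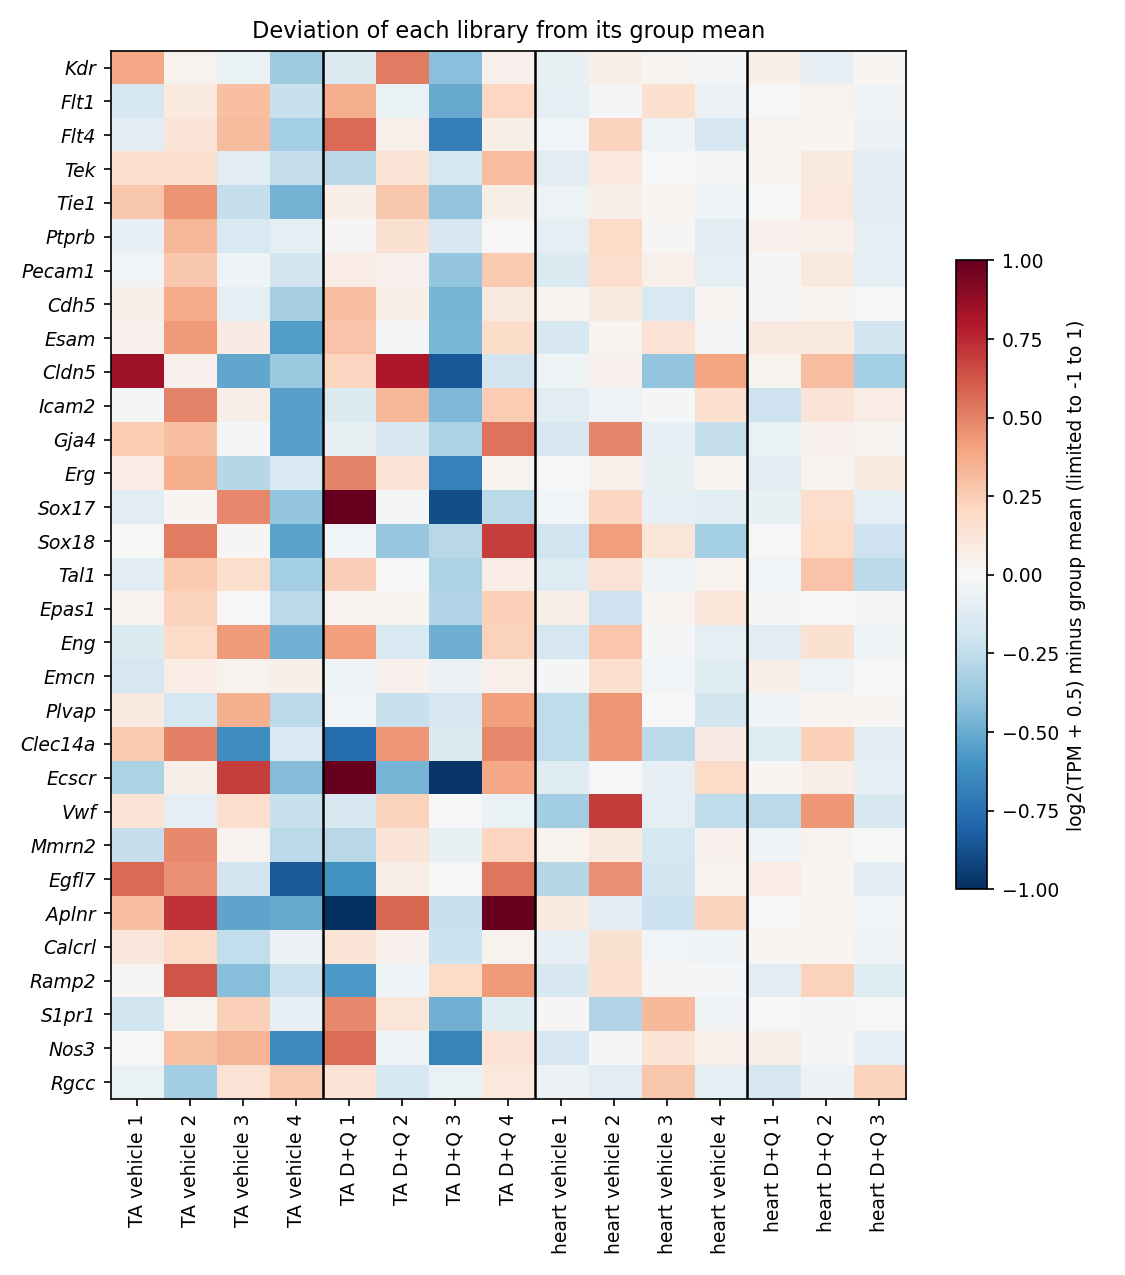
Difference between log2(TPM + 0.5) in each library (columns) and the mean of its group, for the 31 genes (rows, grouped by role), with colour limited to -1 to 1. TA D+Q replicate 3 and TA vehicle replicate 4 are blue for 29 of 31 genes each, and the heart columns are pale.

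In the heart, D+Q against vehicle asked what 4 months of senolytic treatment left in the vessel-lining genes. Of the 31 genes, Epas1 was higher and no other gene was called; the call needed an adjusted p under 0.05 (limma, Benjamini-Hochberg over all 16132 genes tested, labelled sex as covariate) and a log2 fold change beyond 0.5 in either direction. Over all genes tested, 0.316% were called. Fold changes here and throughout are differences on the log2(TPM + 0.5) scale, which understates those of genes at low level.

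Epas1 was at 82.5, 82.0 and 80.5 TPM in the D+Q hearts and at 55.4, 45.8, 54.0 and 57.7 TPM in the vehicle hearts. Every D+Q heart lay above every vehicle heart. The fitted difference was 0.63 ± 0.08 (SE, n = 3 and 4), a fold of 1.55, with limma adjusted p = 0.0355 (95% interval of the difference 0.45 to 0.82). The call was narrow: the difference stayed between 0.55 and 0.72 when any 1 of the 7 hearts was left out, but the adjusted p passed in only 1 of those 7 fits, without vehicle replicate 3 (0.0391), and ranged from 0.0829 to 0.142 in the other 6. Without D+Q replicate 3, the library whose expression goes against its sex label, the difference was 0.72 with adjusted p = 0.142; with all 7 hearts and sex read from expression it was 0.71 with adjusted p = 0.0371. Epas1 is made by cardiomyocytes and perivascular cells as well as by endothelium, and the ventricular and atrial muscle genes given above differed between the same groups. A score of the atrial genes Myl7, Myl4 and Sln was also used as covariate in place of sex. The difference of Epas1 was then 0.22 (limma adjusted p = 0.765). That score followed treatment closely over the 7 hearts (r = -0.96), so atrial content and treatment cannot be told apart here.

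A further 7 genes had an unadjusted p under 0.05 without passing the adjustment. With Epas1 counted, 3 of 31 were on the higher side, where 9.65% of all genes were, and 5 of 31 on the lower side, where 7.99% of all genes were. The groups did not overlap for 2 genes on the higher side (9.63% of all genes) and for 3 on the lower side (5.57% of all genes).

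The VEGF receptors were split. Kdr (VEGFR2), the main receptor of VEGF-A, was at 46.3, 42.0 and 45.1 TPM in the D+Q hearts and at 33.3, 36.5, 35.8 and 34.8 TPM in the vehicle hearts, with no overlap. Its difference was 0.33 ± 0.06, a fold of 1.26 (limma adjusted p = 0.0934). Flt4 (VEGFR3), which reads VEGF-C and VEGF-D and is the receptor of lymphatic vessels, lay the other way, at 6.54, 6.45 and 6.09 TPM against 7.71, 9.30, 7.63 and 6.91 TPM, also with no overlap (difference -0.31 ± 0.10, limma adjusted p = 0.176). Flt1 (VEGFR1), a decoy for VEGF-A, had a difference of 0.14 ± 0.07 (limma adjusted p = 0.323).

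Of the 5 transcription factors, Sox18 came next to Epas1. It was at 30.6, 35.0 and 26.3 TPM in the D+Q hearts and at 17.99, 27.8, 22.6 and 16.3 TPM in the vehicle hearts. Vehicle replicate 2 reached above the lowest D+Q heart, so the groups overlapped (difference 0.47 ± 0.10, fold 1.38, limma adjusted p = 0.106). Erg, the ETS factor most particular to endothelium in general use as a marker, and Sox17 had differences of 0.14 ± 0.08 and 0.15 ± 0.11, and Tal1 of -0.21 ± 0.15.

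The genes on the lower side encode surface and matrix proteins. Plvap, which forms the diaphragms of fenestrae and caveolae, was at 5.74, 6.04 and 6.03 TPM in the D+Q hearts and at 7.90, 13.1, 9.48 and 8.28 TPM in the vehicle hearts. The groups did not overlap, and vehicle replicate 2 was the highest (difference -0.68 ± 0.14, fold 0.626, limma adjusted p = 0.103). Mmrn2 (multimerin-2), an endothelial matrix protein that binds Clec14a, was at 15.3, 16.2 and 15.8 TPM against 22.6, 23.6, 19.5 and 22.8 TPM, again with no overlap (difference -0.46 ± 0.08, fold 0.726, limma adjusted p = 0.0878). Without vehicle replicate 3, Mmrn2 was called together with Epas1.

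Vwf, the carrier of clotting factor VIII that platelets also hold, was at 8.05, 13.4 and 8.77 TPM in the D+Q hearts and at 11.4, 24.2, 13.7 and 12.2 TPM in the vehicle hearts. The groups overlapped, and the highest value was again that of vehicle replicate 2 (difference -0.63 ± 0.24, limma adjusted p = 0.233). Ramp2, the partner of Calcrl in the adrenomedullin receptor, had a difference of -0.27 ± 0.09 (limma adjusted p = 0.213). Vehicle replicate 2, highest for 21 of 31 endothelial genes, was also the highest in the summed level of the 8 atrial genes (4331 TPM, against 890 to 2267 TPM in the other vehicle hearts and 407 to 453 TPM in the D+Q hearts) and of the 8 blood and platelet genes (1166 TPM, against 328 to 549 TPM and 49.7 to 127 TPM). With the atrial score as covariate the differences of Plvap (0.48), Vwf (1.17), Flt4 (0.13) and Ramp2 (0.39) turned positive, none past the test, and that of Mmrn2 was -0.56. Other marker lists also differed between the heart groups: the 4 epicardial genes summed to 15.8 to 22.4 TPM under vehicle and 11.1 to 14.3 TPM under D+Q, and the 6 fibroblast genes to 594 to 839 TPM and 477 to 559 TPM, while the 8 leukocyte genes overlapped at 141 to 241 TPM and 114 to 188 TPM. The part of blood, epicardial and stromal cells in these values was not tested.

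**Figure D3:**
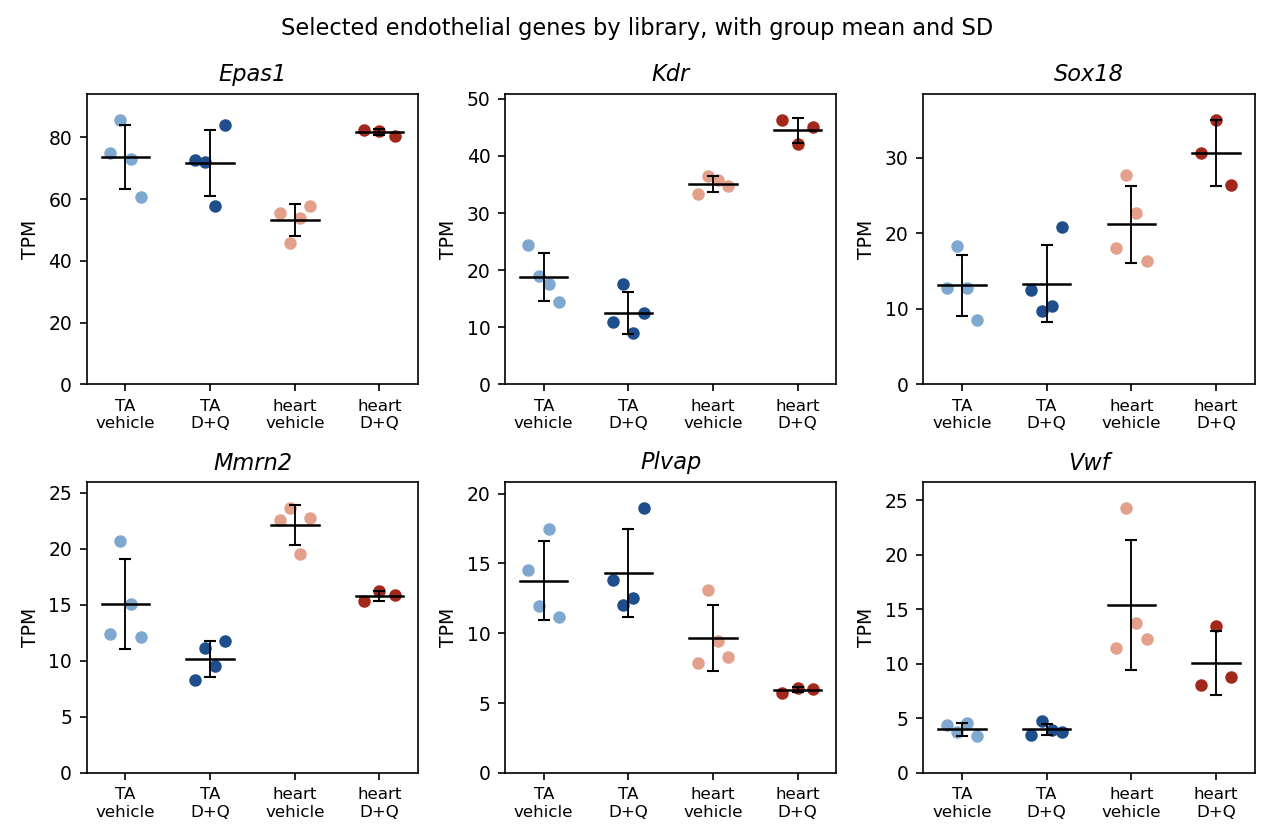
TPM of 6 endothelial genes in every library of the 4 groups (points), with the group mean (wide line) and SD (bar). For Epas1 and Kdr the D+Q hearts lie above all vehicle hearts, for Mmrn2 and Plvap they lie below, and for Sox18 and Vwf the heart groups overlap.

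Without D+Q replicate 3, the differences of these 7 genes kept their direction, at 0.28 for Kdr, 0.38 for Sox18, -0.35 for Flt4, -0.43 for Mmrn2, -0.87 for Plvap, -0.78 for Vwf and -0.26 for Ramp2, none past the test. Of the other 23 endothelial genes of the heart, several general markers had differences near 0 with narrow intervals. Pecam1 (CD31) had a difference of 0.01 (95% interval -0.13 to 0.16), Cdh5 of -0.03 (-0.19 to 0.13), Tie1 of 0.02 (-0.13 to 0.16) and Emcn, a sialomucin of capillary and venous endothelium, of -0.02 (-0.20 to 0.15). Wider intervals reached past 0.5 for Cldn5, a tight junction claudin, at 0.30 (-0.21 to 0.81), Clec14a at -0.31 (-0.75 to 0.14), Egfl7 at -0.25 (-0.62 to 0.12), Tal1 at -0.21 (-0.56 to 0.13) and Gja4 at -0.12 (-0.51 to 0.28). For 20 of 31 genes the whole interval lay within 0.5 of no difference, and for 15 of 31 without D+Q replicate 3, where Pecam1 was at -0.02, Cdh5 at -0.0019, Tie1 at 0.04 and Emcn at -0.07. The median over the 31 genes was -0.02, beside -0.0025 over all genes tested, with 14 genes on the positive and 17 on the negative side, where 50.5% of all genes were negative.

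In TA, D+Q against vehicle asked the same of 2 months of treatment in young muscle. No endothelial gene was called, and neither was any of the 16298 genes tested (0%; limma with 1 surrogate variable as covariate). At an unadjusted p under 0.05 there were 0 genes on the higher side, where 0.638% of all genes were, and 3 of 31 on the lower side, where 2.36% of all genes were. Every adjusted p on the list was above 0.99. The paper, which ran DESeq2 on counts, reported genes both up and down in TA and in heart at the same cut-offs. The 0 called here belongs to limma on TPM and does not show that TA was unchanged. The median of the 31 fitted differences was -0.21, beside -0.07 over all genes, and 26 of 31 were negative, where 66.4% of all genes were.

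The 3 genes with the smallest p were Ecscr, Kdr and Mmrn2. Kdr was at 10.99, 17.6, 8.97 and 12.5 TPM in the D+Q muscles and at 24.3, 18.9, 17.6 and 14.4 TPM in the vehicle muscles. D+Q replicate 2 reached into the vehicle range, so the groups overlapped (difference -0.59 ± 0.23, SE, n = 4 and 4, limma adjusted p = 0.999). Left out in turn, single libraries moved this difference between -0.82 and -0.47.

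Mmrn2 was at 8.25, 11.1, 9.56 and 11.8 TPM in the D+Q muscles and at 12.4, 20.7, 15.1 and 12.1 TPM in the vehicle muscles. Every D+Q muscle lay below every vehicle muscle, by a small margin (difference -0.51 ± 0.20, limma adjusted p = 0.999). Emcn was the other gene without overlap, at 14.0 to 15.1 TPM against 15.4 to 18.4 TPM (difference -0.25 ± 0.13), and 1.25% of all genes lay wholly below vehicle. Ecscr, an endothelial regulator of chemotaxis and apoptosis, had a fitted difference of -0.41 ± 0.15 (limma adjusted p = 0.999) although its mean was 12.8 TPM in D+Q and 12.2 TPM in vehicle muscles. With no covariate its difference was -0.07, so the surrogate variable, which was highest in D+Q replicate 1 (0.70), where Ecscr was at 23.4 TPM, moved its size. With no covariate the differences of 10 of 31 genes were positive, in place of 5.

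Aplnr had the most negative fitted difference in TA, -0.85 ± 0.45, which did not pass the test. The positive ones were Flt1 (0.17), Flt4 (0.03), Vwf (0.00022), Nos3, which makes nitric oxide (0.08), and Rgcc, a cell-cycle regulator that hypoxia induces (0.20). The intervals were wide: only 8 of 31 lay wholly within 0.5 of no difference. D+Q muscles were all labelled male, and among males alone (4 D+Q and 2 vehicle) the median of the list was -0.16.

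**Figure D4:**
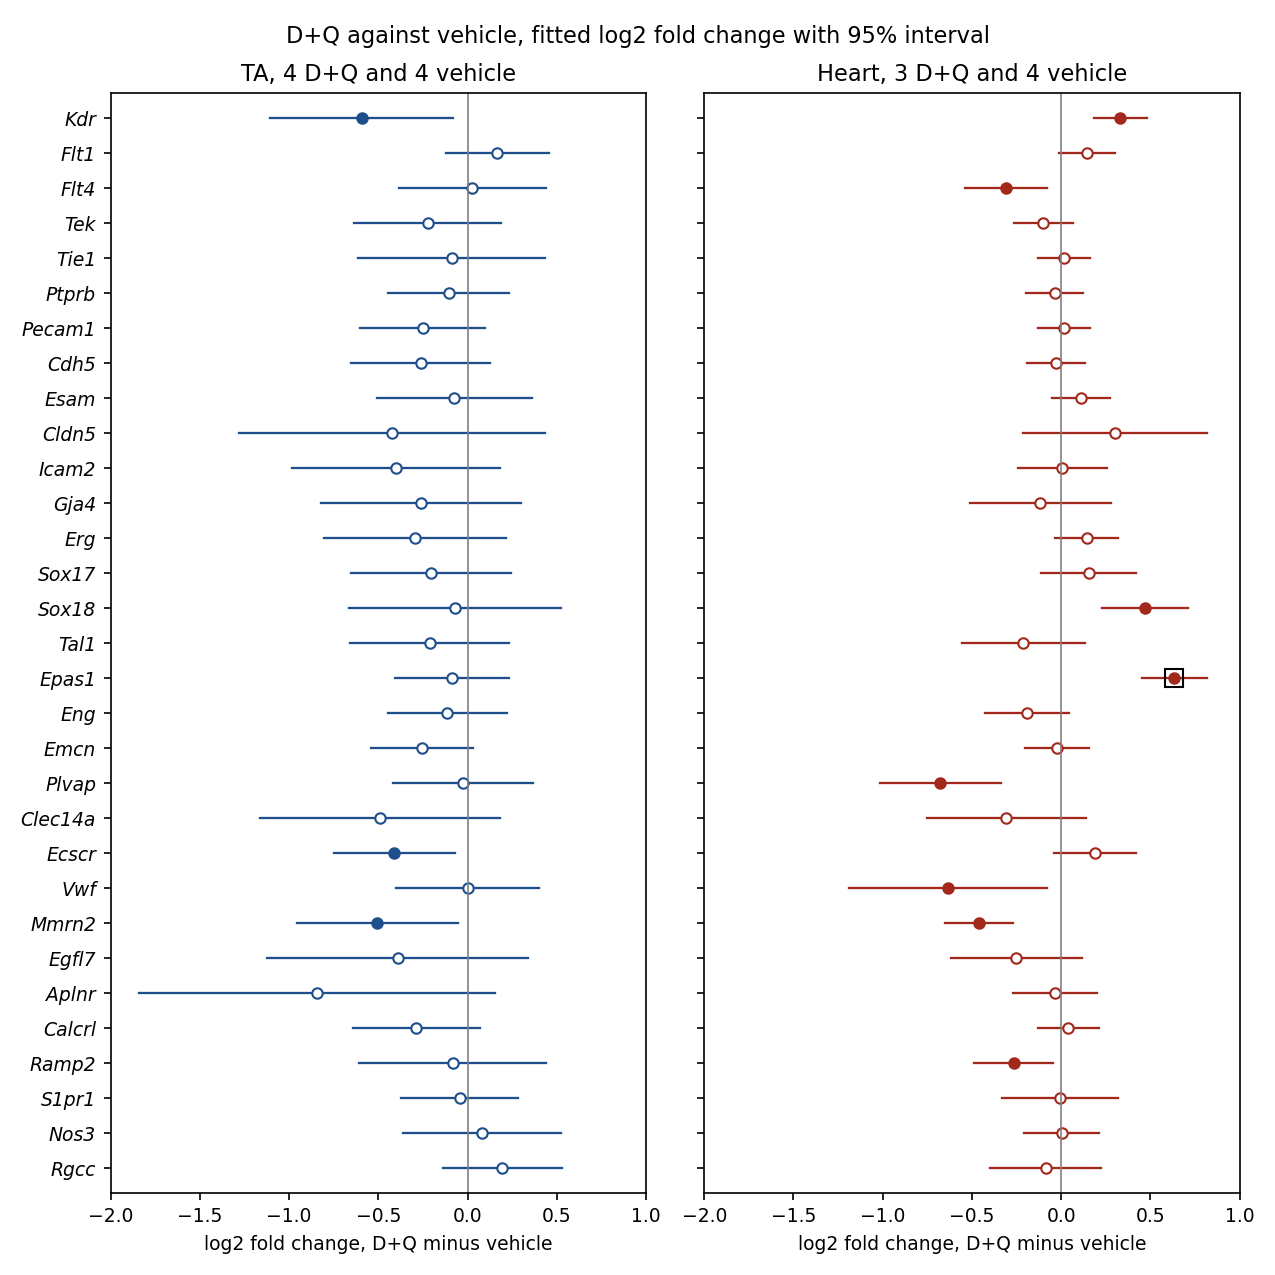
Fitted log2 fold change of D+Q over vehicle for the 31 endothelial genes in TA (left) and heart (right), with 95% intervals from limma. Filled points have an unadjusted p under 0.05, and the square marks Epas1 in heart, the single gene called; Kdr lies at -0.59 in TA and at 0.33 in heart.

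Since TA and heart differed in the side of several genes, the difference between the D+Q effects of the tissues was tested in 1 fit over all 15 libraries, without covariates. No endothelial gene passed, against 0.0616% of the 17868 genes tested. At an unadjusted p under 0.05 there was 1 of 31 genes with the higher effect in TA (1.85% of all genes) and there were 2 with the lower (3.71% of all genes). They were Epas1 (difference of effects, TA minus heart, -0.66 ± 0.18, limma adjusted p = 0.434), Kdr (-0.92 ± 0.26, limma adjusted p = 0.471) and Plvap (0.69 ± 0.26, limma adjusted p = 0.817). So a difference in response between the tissues was not shown for any gene on the list. Age, treatment length and tissue go together in this contrast and cannot be told apart. Sex is not balanced either: all D+Q muscles are male and all D+Q hearts express as female, while each vehicle group holds 2 of each. No gene on the list passed with labelled sex in the fit or without D+Q heart replicate 3.

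The widest differences were between the tissues. In the vehicle groups 14 of 31 endothelial genes were called between TA and heart (limma, all 15 libraries as 4 groups), against 36.7% of all genes tested. Of these, 1 was higher in TA (22.6% of all genes) and 13 were lower in TA (14.1% of all genes). Without vehicle TA replicate 4 these counts were 3 and 8, and Tie1, Sox18, Egfl7, Tal1 and Mmrn2 were not called. Leaving out each library in turn, Sox18 kept its call in 3 of 8 fits and Tal1 in 4 of 8. The median over the list was -0.33, TA minus heart, where that of all genes was 0.16, and 23 of 31 differences were negative, where 38.5% of all genes were. The groups did not overlap for 13 genes on the lower side (15% of all genes) and 3 on the higher. These groups again differ in age and treatment length as well as in tissue, and these cannot be told apart.

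Vwf showed the widest gap, at 4.40, 3.70, 4.55 and 3.33 TPM in vehicle TA against the vehicle heart values given above. No muscle came near any heart (difference -1.77 ± 0.21, fold 0.294, limma adjusted p = 6.84e-06). Icam2, an adhesion molecule for leukocytes, was at 4.98, 7.32, 5.24 and 3.30 TPM in vehicle TA and at 12.2, 12.7, 13.0 and 14.7 TPM in vehicle heart (difference -1.30 ± 0.20, limma adjusted p = 9.13e-05). Eng (endoglin), a TGF-beta co-receptor, was lower in TA with a difference of -1.19 ± 0.20, Flt4 with -1.40 ± 0.21, Egfl7, a secreted matrix protein, with -0.88 ± 0.28 and Kdr with -0.91 ± 0.17.

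Rgcc was the gene higher in TA. It was at 46.7, 38.4, 54.2 and 58.7 TPM in vehicle TA and at 19.9, 19.1, 25.0 and 19.4 TPM in vehicle heart, with no overlap (difference 1.22 ± 0.14, fold 2.32, limma adjusted p = 3.6e-06). Sox17 and Epas1 also did not overlap on the higher side, where 25.9% of all genes did not, but neither was called: Sox17 missed the adjusted p (0.12), and Epas1 passed it (0.00623) with a difference of 0.46, under the fold required. Cdh5, Ptprb, Ecscr and Cldn5 had differences between -0.04 and 0.02.

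In the D+Q groups 17 of 31 were called, against 37.3% of all genes, with 2 higher in TA (21.4% of all genes) and 15 lower (15.9% of all genes). The median over the list was -0.62, beside 0.09 over all genes, with 26 of 31 negative (43.8% of all genes). The groups did not overlap for 2 genes on the higher side (26.8% of all genes) and 16 on the lower (19.9%). Sex goes with tissue in this contrast, since all 4 D+Q muscles are male and all 3 D+Q hearts express as female, and tissue, age, treatment length and sex cannot be told apart. With labelled sex in the fit, 2 genes were called higher and 13 lower.

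On the lower side Kdr had the widest difference, at 8.97 to 17.6 TPM in D+Q TA and 42.0 to 46.3 TPM in D+Q heart (-1.83 ± 0.19, fold 0.282, limma adjusted p = 1.23e-06), followed by Icam2 (-1.65 ± 0.22) and Clec14a (-1.35 ± 0.31). Higher in TA were Rgcc again (1.55 ± 0.15, fold 2.92) and Plvap (1.18 ± 0.19), which was at 13.8, 12.1, 12.5 and 18.9 TPM in D+Q TA and at 5.74 to 6.04 TPM in D+Q heart. Aplnr was called (-1.12 ± 0.43) at limma adjusted p = 0.0448, but kept its call in only 2 of 7 fits that left out a library. Without TA D+Q replicate 1 its difference was -0.68 (limma adjusted p = 0.113). Without D+Q heart replicate 3, 2 genes were called higher and 14 lower in TA.

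The vehicle and the D+Q contrast use different libraries. Of the endothelial genes called, 12 were called in the same direction in both, which is 85.7% of the vehicle calls and 70.6% of the D+Q calls. Over all genes tested those shares were 80.6% and 79.2%. The 12 were Rgcc, higher in TA, and Kdr, Flt4, Tie1, Eng, Vwf, Emcn, Sox18, Egfl7, Mmrn2, Clec14a and Icam2, lower in TA, of which Tie1, Sox18, Egfl7 and Mmrn2 lost the vehicle call without vehicle TA replicate 4. Another 12 of the 31 were called in neither, among them Pecam1, Cdh5, Esam and Cldn5 of the junction proteins, whose differences ran from -0.72 to -0.03 over both contrasts.

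**Figure D5:**
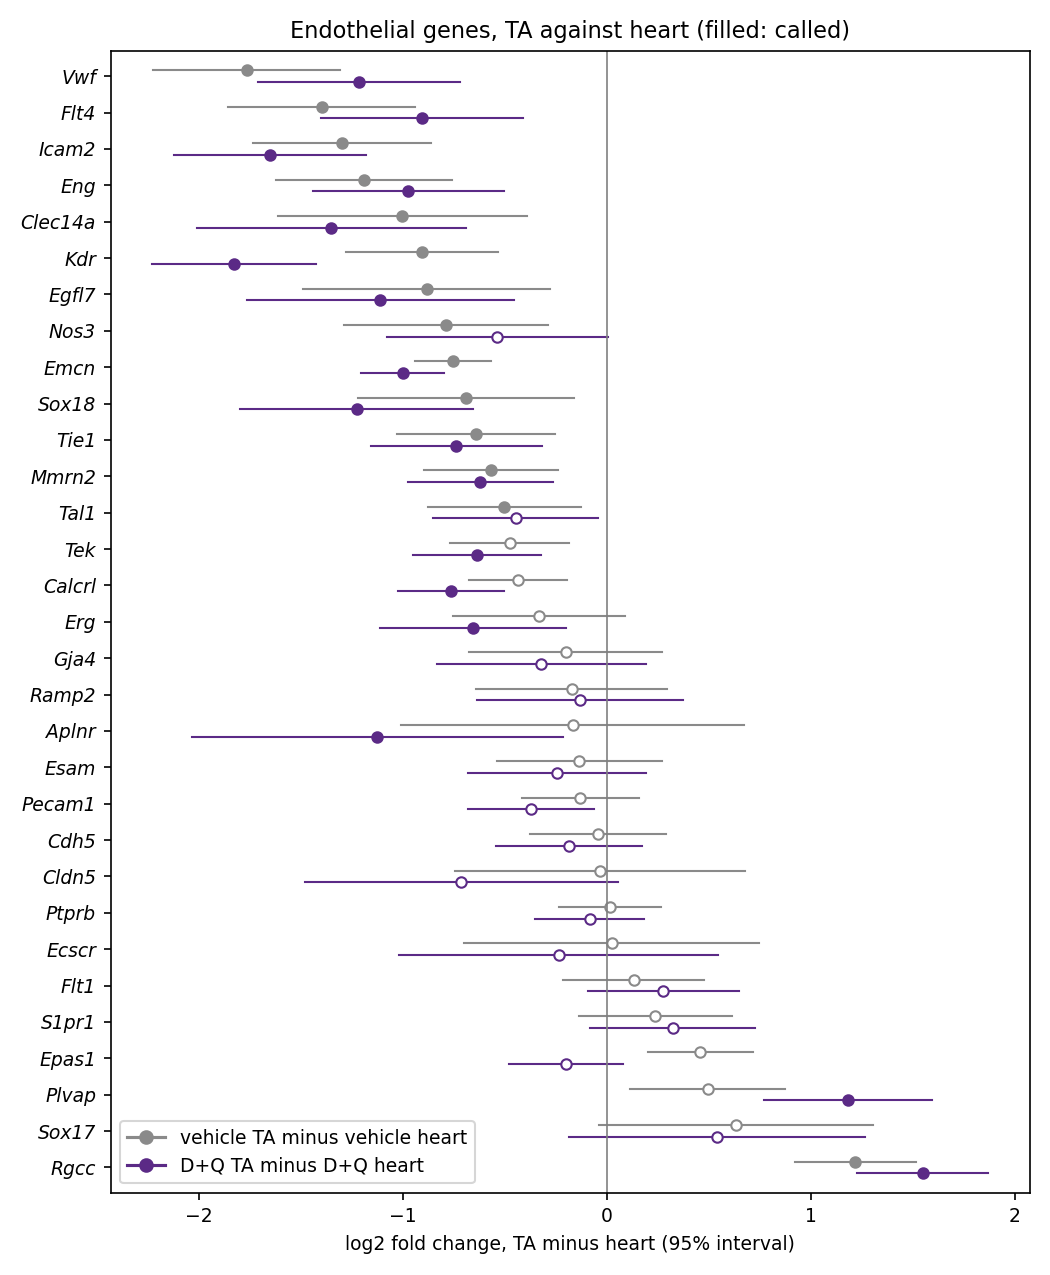
Fitted log2 fold change of TA over heart for the 31 endothelial genes in vehicle (grey) and D+Q (purple) mice, with 95% intervals from limma, ordered by the vehicle value. Filled points were called; 13 vehicle and 15 D+Q genes lie on the left, lower in TA, and Rgcc is called on the right in both.

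The genes were also set relative to the geometric mean of Pecam1, Cdh5 and Tie1, which are themselves on the list. This scaling asks how the genes differ per unit of these 3 common endothelial transcripts. The vehicle contrast then gave 5 genes higher and 8 lower in TA, and the D+Q contrast 5 higher and 9 lower. Of all 17868 genes tested, 8663 were called in vehicle and 9491 in D+Q under this scaling, with medians of 0.39 and 0.45. Kdr, Flt4, Vwf, Eng, Egfl7, Clec14a and Icam2 stayed on the lower side and Rgcc on the higher side under every scaling tried, with their calls kept. Tie1, Emcn, Sox18 and Mmrn2 also stayed on the lower side, but each lost the vehicle call in at least 1 setting. The ratio shows unequal change only, since the 3 reference genes are not all level between the tissues. Tie1 was called lower in TA in both contrasts (-0.64 in vehicle and -0.74 in D+Q). Pecam1 and Cdh5 were called in neither, but Pecam1 in D+Q missed only the fold required (-0.37, limma adjusted p = 0.049992). The 8 leukocyte markers were called higher in TA for 6 genes and lower for 2, in the vehicle and in the D+Q contrast alike. Of the 8 blood and platelet markers, 7 were called lower in TA in the vehicle contrast and 1 in the D+Q contrast, and their part in the tissue differences was not tested.

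The upstream sequence is shown for Kdr, Clec14a and Rgcc, which were called in the same direction in both tissue contrasts and stand for either side of it. Each line gives the 250 bases before the transcription start, 5′ to 3′ on the gene's strand, from RefSeq on build GRCm38.p6. They lie at chr5:75978456-75978705, chr12:58269259-58269508 and chr14:79301636-79301885, all on the minus strand. Capitals mark CCGGAA or CAGGAA, or their reverse complements, forms of the site that ETS factors such as Erg recognise.
Kdr: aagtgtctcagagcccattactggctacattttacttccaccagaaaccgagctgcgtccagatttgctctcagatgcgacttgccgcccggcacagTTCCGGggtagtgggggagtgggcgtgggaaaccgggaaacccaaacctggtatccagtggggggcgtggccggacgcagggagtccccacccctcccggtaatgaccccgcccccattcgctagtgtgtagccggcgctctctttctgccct
Clec14a: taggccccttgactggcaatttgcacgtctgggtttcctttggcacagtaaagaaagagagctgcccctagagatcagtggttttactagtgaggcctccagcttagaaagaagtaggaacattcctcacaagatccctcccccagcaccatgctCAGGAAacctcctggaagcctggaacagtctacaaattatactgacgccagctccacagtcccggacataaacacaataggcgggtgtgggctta
Rgcc: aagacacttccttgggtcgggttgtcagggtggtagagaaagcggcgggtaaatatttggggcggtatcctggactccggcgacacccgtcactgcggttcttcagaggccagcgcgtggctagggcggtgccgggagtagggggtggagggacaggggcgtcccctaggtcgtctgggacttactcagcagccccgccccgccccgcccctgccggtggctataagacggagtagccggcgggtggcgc
Of the 31 genes, 15 matched an entry in that RefSeq table, with 20 promoters in all. CAGGAA on either strand was in 9 of those 20 promoters (45%) and in 25.7% of the 32851 promoters of the same length in the table, and CCGGAA was in 1 of 20 (5%), that of Kdr, and in 12% of all. These 2 forms share the letters GGAA, and neither contains the other. The GATA form AGATAA was in 2 of 20 (10%, and 9.99% of all), the SOX form AACAAT in 4 of 20 (20%, and 9.42% of all) and the hypoxia response core ACGTG in 1 of 20 (5%, and 16.6% of all), that of Clec14a. The 20 promoters come from 15 genes, so several share a gene, and a match is a run of letters, not a site shown to be bound.

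Other endothelial genes, taken from lists by role and vessel type, gave no call for D+Q in either tissue. In the heart, 14 capillary genes had 4 with an unadjusted p under 0.05 on the higher side and 0 on the lower, with a median difference of 0.12; over all genes 9.65% were on the higher and 7.99% on the lower side, the shares against which the counts of all these lists stand. Car4, a carbonic anhydrase of capillary endothelium, was at 13.3, 16.3 and 13.1 TPM in the D+Q hearts and at 10.6, 8.98, 10.1 and 9.05 TPM in the vehicle hearts, with no overlap (0.52 ± 0.11, limma adjusted p = 0.0993). Cd36, the fatty acid carrier shared with cardiomyocytes, had a difference of 0.30 ± 0.08 and Btnl9 one of 0.29 ± 0.08.

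The arterial and endocardial genes lay on the other side. Of 11 arterial genes 4 had an unadjusted p under 0.05 on the lower and 1 on the higher side (median -0.21); the smallest p were those of Fbln5 (-0.50 ± 0.14), Bmx (-0.71 ± 0.21) and Sema3g (0.35 ± 0.10). Of the 5 endocardial genes tested 4 had one on the lower side (median -0.73). This list is not particular to endocardium, since its 6 genes summed to more in TA than in heart. The mean sums were 44.3 TPM in vehicle TA and 35.3 TPM in vehicle heart, and 38.3 and 23.5 TPM under D+Q. Npr3, the natriuretic peptide clearance receptor that marks endocardium, was at 6.77, 7.68 and 7.86 TPM in the D+Q hearts and at 9.39, 16.9, 12.2 and 11.6 TPM in the vehicle hearts (-0.73 ± 0.17, limma adjusted p = 0.112). These hearts are the ones with little atrial RNA, and the part of atrial tissue in the endocardial and arterial values was not tested.

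Of the remaining endothelial lists in the heart, 3 of 7 venous genes, 2 of 6 lymphatic genes, 3 of 20 further transcription factors and 1 of 13 coreceptor and Notch genes had an unadjusted p under 0.05 on the lower side, with 0, 1, 1 and 0 on the higher side. A count such as 1 of 13 is near the 7.99% of all genes. Among the ligands, with 2 of 16 on the higher and 3 on the lower side, Vegfa was at 141, 122 and 123 TPM under D+Q and at 99.1, 86.2, 113 and 94.1 TPM under vehicle, without overlap (0.38 ± 0.10, limma adjusted p = 0.132). Vegfd, a ligand of Flt4, lay lower without overlap (-0.70 ± 0.14, limma adjusted p = 0.0977), and Angpt1, the ligand of Tek, lay lower with overlap (-0.57 ± 0.14, limma adjusted p = 0.115). Without D+Q replicate 3 these differences kept their direction, at 0.61 for Car4, 0.37 for Cd36, 0.29 for Btnl9, -0.60 for Fbln5, -0.91 for Bmx, 0.31 for Sema3g, -0.95 for Npr3, 0.41 for Vegfa, -0.69 for Vegfd and -0.62 for Angpt1, and no gene of these lists was called.

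In TA, the genes of these lists with the smallest p were Ets2 (-0.50 ± 0.16), Unc5b (-0.56 ± 0.22), Btnl9 (-0.61 ± 0.24) and Mmrn1 (0.60 ± 0.24), each with limma adjusted p = 0.999. At an unadjusted p under 0.05, 3 of 10 arterial, 4 of 19 transcription factor, 2 of 14 capillary and 1 of 13 coreceptor and Notch genes were lower. On the higher side were 1 of 15 ligand genes and 1 of 6 lymphatic genes. Over all genes, 2.36% were on the lower and 0.638% on the higher side, and some genes are in more than 1 list. The 9 venous and 3 endocardial genes tested in TA had none under 0.05 before adjustment. Sphk1, which makes the ligand of S1pr1, had a difference of 0.51 ± 0.22 and was at 43.8 TPM in D+Q replicate 1, 1.06 to 9.74 TPM in the other D+Q muscles and 1.41 to 10.8 TPM in the vehicle muscles.

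Between the tissues, the capillary genes gave 1 higher and 6 lower in vehicle TA out of 14, and 1 higher and 9 lower in D+Q TA, where 22.6% and 14.1% of all genes were called in vehicle and 21.4% and 15.9% in D+Q mice. Btnl9 was at 1.91 to 4.00 TPM in vehicle TA and 15.7 to 21.0 TPM in vehicle heart (-2.43 ± 0.20). Arterial genes gave 1 higher and 6 lower out of 11 in vehicle and 0 higher and 7 lower in D+Q TA, with the widest differences for Bmx in vehicle (-1.60 ± 0.21) and Unc5b in D+Q (-1.35 ± 0.17). The lymphatic genes gave 0 higher and 4 lower out of 6 in vehicle TA, and 1 higher and 3 lower in D+Q TA. Among those of vehicle mice, Ccl21a, a chemokine of lymphatic endothelium, had a difference of -4.40 ± 0.60 and Prox1, a lymphatic factor that cardiomyocytes also express, one of -4.35 ± 0.10. Pdpn lay the other way, at 11.1 to 37.8 TPM in vehicle TA and 6.89 to 7.70 TPM in vehicle heart, but was not called there. The venous genes were split, with 2 called higher and 2 called lower out of 10 in each contrast. Their differences were negative for 6 in vehicle and 5 in D+Q. Of these venous genes Ackr1, which marks venules, was higher in TA in both contrasts (2.24 ± 0.42 in vehicle and 2.76 ± 0.45 in D+Q).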

How the data were processed

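Bulk mRNA-seq values were available as 1 table with a column per library. Per the paper's methods and the labels, the authors trimmed paired-end reads with Trim Galore 0.6.10, quantified them with Salmon 1.10.3 against GRCm39 and summarised transcripts to genes with tximport. The deposited values are TPM, each column summing to 1000000, and the annotation release is not given in the sources used here. TPM was compared on log2(TPM + 0.5) after keeping genes of at least 0.5 TPM in at least 3 libraries of a fit, with limma 3.58.1 (lmFit, eBayes with trend) in R 4.3.3 and Benjamini-Hochberg adjustment over all genes tested. The TA fit held 8 libraries and 1 surrogate variable (5 rounds of re-weighting), the heart fit 7 libraries and labelled sex, after the study's own designs; tissue contrasts and the difference of effects used all 15 libraries as 4 groups. Symbols came from GENCODE M39, which matched 56236 of 56980 identifiers. All 31 genes were accounted for; of other endothelial lists, up to 3 genes with the smallest p, or the largest fold among those called between tissues, were named. The members, lists and roles were chosen with earlier results of these data known. The fits were also run on simulated data, with independent noise and changes wider than any difference between D+Q and vehicle on the list. Recovery of differences of the size seen here was therefore not tested. Alternatives changed the pseudocount, filter, scaling, covariate, trend, minimum fold and libraries. Same-numbered libraries of the D+Q and vehicle groups did not deviate together (mean correlation -0.11 in TA and 0.00054 in heart), so the numbers were not treated as pairs.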

Additional observations from a re-analysis of the deposited data

Results flagged for a closer look

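Each of 93 sets of 4 libraries (31 genes in 3 groups of 4) was searched for a library whose gap to the nearest other as a share of the group's range exceeded Dixon's 95% limit for 4 values. Chance alone gives such a gap in about 1 in 20 sets, and 4 of the 93 had one. Emcn was at 15.4 TPM in vehicle TA replicate 1 and at 17.95 to 18.4 TPM in the other vehicle muscles, so that library sets the narrow gap to the D+Q muscles. Ptprb, the phosphatase that acts on Tek, was at 29.5 TPM in vehicle TA replicate 2 and at 20.9 to 22.0 TPM in the others. Rgcc was at 25.0 TPM in vehicle heart replicate 3 against 19.1 to 19.9 TPM, and Gja4, an arterial gap junction protein, at 6.19 TPM in vehicle heart replicate 2 against 3.55 to 3.99 TPM. Groups of 3 were not searched.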

How the results depend on the processing

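In the heart, the count of called endothelial genes, 1, was 0 with no filter beyond a value above 0, with median-of-ratios scaling, with scaling to Pecam1, Cdh5 and Tie1, without limma's trend, with an atrial score in place of sex and with the replicate block in place of sex, and it ran from 0 to 2 when single libraries were left out; the cause was not tested. The difference of Epas1 ran from 0.22 to 0.71 over all settings, the lowest with the atrial score, which correlated with treatment at -0.96 and moved the median of all genes to 0.38. With that score the heart differences of Flt4 (0.13), Vwf (1.17), Plvap (0.48) and Ramp2 (0.39) turned positive. Leaving out mitochondrial genes in the heart gave 6 genes higher and 5 lower at an unadjusted p under 0.05, in place of 3 and 5. It gave 19 positive differences in place of 14, and moved the median of all genes to 0.04. The count of called genes in TA was 0 under all 13 settings and 8 fits without a library. It ran from 12 to 18 (11 to 17 without a library) between vehicle groups and from 14 to 19 (15 to 18) between D+Q groups, within 1.5 times of 14 and 17. Without vehicle TA replicate 4 the split between vehicle groups was 3 higher and 8 lower. Median-of-ratios scaling moved the median of all genes between vehicle groups from 0.16 to -0.00031 and gave 1 higher and 16 lower. With the replicate block the counts were 0 in TA, 0 in heart, 13 and 17 between the tissues and 0 for the difference of effects, where no setting made a call. TPM holds no depth, so counting error is not known.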
